A study of Mus musculus with 6 samples.

Results

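The genes described here encode the machinery that carries proteins into the endoplasmic reticulum (ER) and moves them between the ER and the Golgi apparatus. They were chosen by gene symbol alone: subunits of the signal recognition particle and its receptor, the SEC61 translocon with its TRAP partners, signal peptidase, the COPII and COPI coats, the p24 (Tmed) proteins, the cargo receptors Lman1, Lman2 and Mia3, the SEC22 SNAREs and the KDEL receptors. The rule found 66 of the 16472 genes in the authors' deposited table, and all 66 had an adjusted p. A further 2 mouse genes whose symbols match the rule, Tmed6 and Tmed11, were not analysed here.

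HT22 is an immortalised line derived from mouse hippocampus, used as a model of neurons. The study exposed cultures of this 1 line to AA147 (the labels write 10 mM) or to DMSO as vehicle, collected both after 16 h, and sequenced non-stranded mRNA libraries, 3 per group. AA147 is a compound that activates ATF6, a sensor of the unfolded protein response, and the comparison asks which transcripts differ between the groups. Nothing in the labels says that the 3 libraries of a group came from separate cultures, so the p-values measure the spread between libraries, which may be technical.

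Proteins bound for secretion are recognised by the signal recognition particle as they leave the ribosome, threaded through the SEC61 channel and cleaved by signal peptidase. COPII vesicles then carry folded cargo from ER exit sites towards the Golgi, and COPI vesicles return escaped ER residents that the KDEL receptors have bound. Many of these genes are textbook targets of the unfolded protein response through ATF6 and XBP1, and some COPII genes are targets of the related factors CREB3L1 and CREB3L2.

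The authors' deposited table gives 1 line per gene: its normalized count averaged over the 6 libraries, a log2 fold change with its standard error (SE), a p and an adjusted p. Values of single libraries, and so their depth and overlap, were not analysed here. The header does not name the numerator. By assumption, a negative value is read as lower with AA147, and every direction below, "fell" and "rose" included, depends on that reading. Under the opposite reading every sign turns and each pair of implied levels or shares swaps its groups, so that a share given as 56.4% with vehicle and 43.8% with AA147 would be 43.8% with vehicle and 56.4% with AA147. ATF6 is known to raise Hspa5 (BiP) and Xbp1. The authors' deposited table gives -0.80 for Hspa5 and -1.21 for Xbp1. As read here, both were lower with AA147, opposite to that known direction. Under the opposite reading both would be higher with AA147, which is the known direction. The members said below to have fallen would then have risen with AA147, and those said to have risen would have fallen. Which reading holds was not tested. A gene is called when its adjusted p is under 0.05. Group averages are given where the mean and the fold change together imply them, taking both at face value and the groups as equal in size.

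As read here, members fell more often than they rose with AA147, and most were not called. In the authors' deposited table, 25 of the 66 genes fell, 37.9%, where 11.1% of all 13597 genes with an adjusted p did, and 3 rose, 4.55%, where 9.05% of all genes did. Together 28 of the 66 were called, 42.4%, beside 20.2% of all genes. The genes of the set are abundant, which raises the share of calls. A mean of 1000 or more was held by 84.8% of them. It was held by 5895 of the 13597 genes with an adjusted p and by 35.8% of the whole table. At that level of expression 23 of 56 members fell, 41.1%, beside 15.6% of all such genes, and 3 rose, 5.36%, beside 12.8%.

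The size of the change was small, and most members that were not called also had a negative value. Over all 66 genes the median log2 fold change was -0.13, beside 0.01 for all genes with an adjusted p. Values were negative for 51 members and positive for 15, where all genes with an adjusted p had 6571 negative and 7026 positive values. Of the 38 uncalled members, 26 had a negative value and 12 a positive value. Of these 26, 8 had an unadjusted p under 0.05. The 25 genes that fell had a median of -0.27, a level 17.2% lower, and 21 of them lay between -0.40 and -0.15. Only Copz2, Sec31b and Sec16b lay below -0.5 in the authors' deposited table. Summed over the set, the implied normalized count was 250022 with vehicle and 223967 with AA147, 10.4% lower, while the sum over all genes was 3.67% lower.

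**Figure D1:**
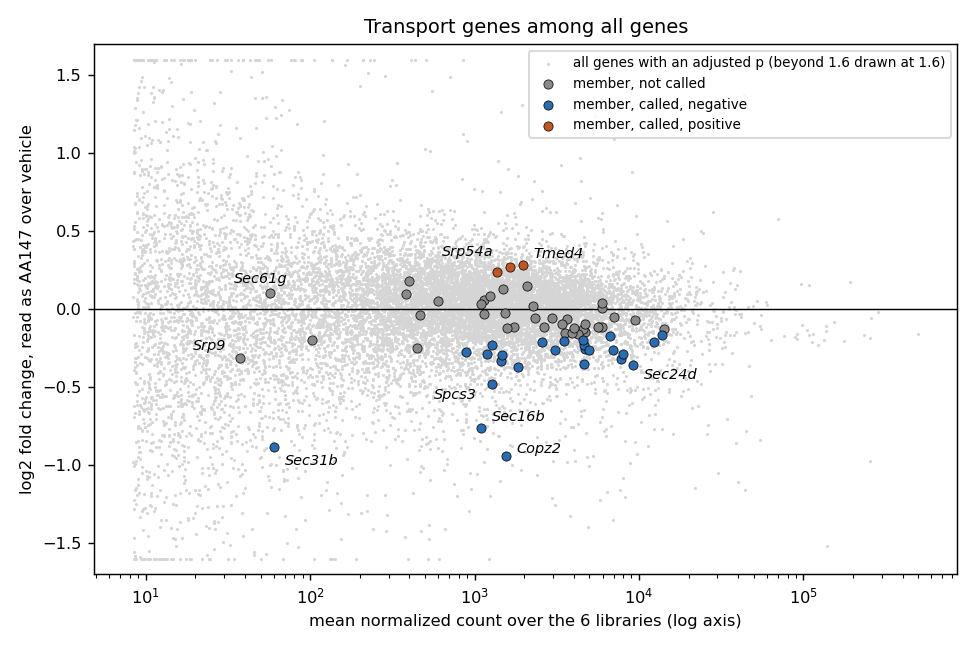
Log2 fold change (vertical axis, read as AA147 over vehicle) against the mean normalized count over the 6 libraries (horizontal log axis) for the 66 transport genes and, in grey, all 13597 genes with an adjusted p. The 25 blue genes fell and the 3 orange genes rose, and most members sit at means of 1000 or more within 0.5 of no change.

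Promoter sequences were compared first with the elements that the stress regulators are known to bind. RefSeq promoters on mouse assembly GRCm38.p6, which run from 250 bases before the start to 50 after it, were held for 55 of the 66 genes and for 27025 symbols in all. The element TGACGTGG, a binding site of XBP1 and ATF6, was searched on both strands, at each start where a gene had several. It was found at 6 of the 55 members, 10.9%, and at 0.714% of all symbols. Among the genes with an adjusted p it was found at 1.04%. The 6 sites are shown because they mark where this element lies in the set. Each is given on the strand of its gene, with the element in capitals (CCACGTCA is the same element on the opposite strand).
Sec24d, chr3:123267459-123267488, plus strand: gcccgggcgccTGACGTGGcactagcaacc
Sec16b, chr1:157506741-157506770, plus strand: ttctgtgtggcTGACGTGGcacggcagttt
Kdelr3, chr15:79516367-79516396, plus strand: tggccgccccgCCACGTCAccgcgcggcca
Copb1, chr7:114254690-114254719, minus strand: cccgcccccttCCACGTCAgccaaggactt
Copb2, chr9:98563713-98563742, plus strand: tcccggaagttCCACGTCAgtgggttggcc
Sec23a, chr12:59011993-59012022, minus strand: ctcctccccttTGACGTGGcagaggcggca

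These elements lay close to the start of transcription. The first base of the element was 26 bases before the start in Sec24d, 44 in Sec16b, 30 in Kdelr3 and 28 in Copb1. It spanned the start in Copb2 and lay 7 to 14 bases after it in Sec23a. Of the 6 genes, Sec24d, Sec16b and Kdelr3 fell and Copb1, Copb2 and Sec23a were not called. Their median log2 fold change was -0.18, beside -0.13 for the 49 members whose promoter held no such element, of which 18 fell. Over the whole set 37.9% of members fell, and 11.1% of all genes with an adjusted p did. Whether members with and without the element differ was not tested. A match is a description of the sequence and no evidence of binding in these cells.

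Other elements were less particular to the set or had no match. The ER stress response element in its classical form (CCAAT, then 9 bases, then CCACG) and in its second form (ATTGG, 1 base, CCACG) had no match at the 55 members. The 2 forms were found at 0.137% and 0.0444% of all symbols, and at 0.198% and 0.104% of the genes with an adjusted p. At shares this low, the lack of a match among 55 promoters does not set the members apart from other genes. The core of the antioxidant response element bound by NRF2 (TGAC, 3 bases, GC) was found at 15 members, 27.3%, beside 14% of all symbols and 16.8% of the genes with an adjusted p. At 4 of the 15 (Kdelr3, Sec16b, Sec23a and Sec24d) it overlapped TGACGTGG, and the letters there satisfy both. Of the 15 genes 8 fell: Copz2, Copz1, Cope, Sec61b, Preb, Kdelr3, Sec16b and Sec24d. Of all 66 members 37.9% fell, and of all genes with an adjusted p 11.1%. Whether members with this element fell more often than other members was not tested. The composite element of ATF4 (TGATG, 1 base, AA) was found only at Kdelr1 among the 55, 1.82%. It was found at 4.51% of all symbols and 2.82% of the genes with an adjusted p.

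**Figure D2:**
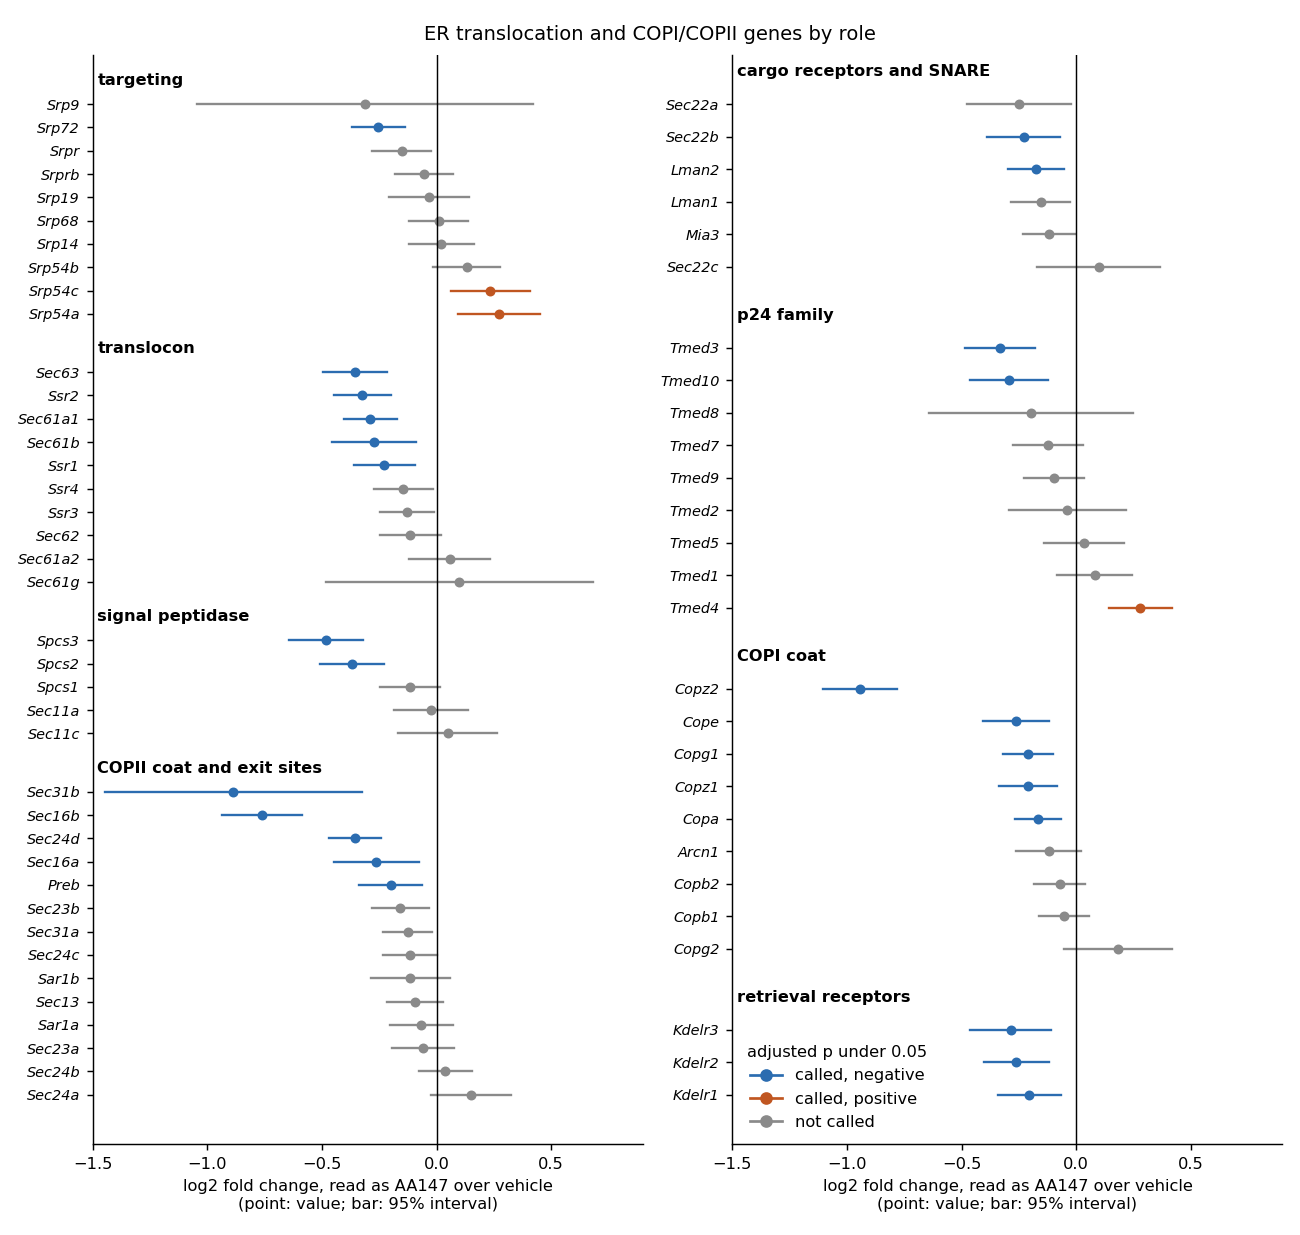
Log2 fold change (horizontal axis, read as AA147 over vehicle) of each of the 66 genes, grouped by role, with its 95% interval from the SE. All 3 KDEL receptors and 5 of 9 COPI coat genes fell, while the targeting genes lay on both sides of no change. Over all genes with an adjusted p, 11.1% fell.

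Targeting to the ER was the role least shifted. By the authors' deposited table, 1 of the 10 genes fell (10%) and 2 rose, with a median log2 fold change of -0.01. Counts by role are read beside all genes with an adjusted p, of which 11.1% fell and 9.05% rose. Srp72, which with Srp68 forms the large protein pair of the signal recognition particle, fell at -0.25 (SE 0.059, adjusted p 0.000264) by the authors' deposited table, an implied 5140 normalized counts with vehicle and 4310 with AA147. Its partner Srp68 lay at 0.01 (SE 0.065), so the pair did not move by the same amount in that table. The receptor subunits Srpr and Srprb had values of -0.15 (adjusted p 0.0844) and -0.05 (adjusted p 0.622) and were not called in the authors' deposited table. Srp19 and Srp14 lay within 0.04 of no change.

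The 2 targeting genes that rose belong to a trio of copies. Srp54a, Srp54b and Srp54c each encode the subunit that binds the signal sequence, and in the GENCODE release M39 transcripts their coding sequences were 99.6% to 100% identical. Reads may therefore have been divided among them, and their single values are uncertain. The authors' deposited table gave 0.27 for Srp54a (SE 0.091, adjusted p 0.0174), 0.23 for Srp54c (SE 0.088, adjusted p 0.0402) and 0.13 for Srp54b (SE 0.074, adjusted p 0.221). Added together, the 3 implied 4173 normalized counts with vehicle and 4842 with AA147, 16% higher, a sum for which the table gives no error. With centred fold changes Srp54c was no longer called, and after subtraction of a trend on transcript length, GC content and expression neither Srp54a nor Srp54c was.

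Srp9 and Sec61g stood out by their low counts, not by a change. Srp9, part of the domain that slows translation during targeting, had a mean of only 37.2 normalized counts and a value of -0.31 with an SE of 0.37 in the authors' deposited table. Sec61g, the gamma subunit of the channel, had a mean of 57.3 and a value of 0.10 with an SE of 0.30. With such SEs, changes near the median of the genes that fell were not detectable for either. In mouse assembly GRCm39, contiguous copies of at least 80% of the coding sequence at 90% identity or more were found at 2 other places for Srp9 and at 5 for Sec61g. The same search found 1 to 3 copies for Sec61b, Tmed2, Srp19, Tmed10 and Sec22b. Whether such copies lowered these counts was not tested.

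In the translocon 5 of 10 genes fell, and the median log2 fold change was -0.19. Sec61a1, the pore-forming alpha subunit, fell at -0.29 (SE 0.060, adjusted p 2.73e-05) per the authors' deposited table, from an implied 8842 normalized counts to 7239. Sec61b, the beta subunit, fell at -0.27 (SE 0.094, adjusted p 0.0223) per the authors' deposited table. Sec63, which brings the chaperone BiP to the channel, fell at -0.35 (SE 0.071, adjusted p 1.45e-05), whereas its partner Sec62 had -0.11 and was not called (adjusted p 0.246) per the authors' deposited table. TRAP, the complex beside the channel that helps some signal sequences to enter, has 4 subunits. Ssr2 fell at -0.32 (SE 0.063, adjusted p 6.1e-06) and Ssr1 at -0.23 (SE 0.068, adjusted p 0.00644), while Ssr4 at -0.14 and Ssr3 at -0.13 were not called in the authors' deposited table. All 4 TRAP subunits thus had negative values. Sec62 (-0.17) and Ssr3 (-0.19) were called once the expression, length and GC trend was subtracted.

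Signal peptidase, which removes the signal sequence, was lower in 2 of its 3 accessory subunits. Spcs3 had the lowest value among the targeting, translocon and signal peptidase genes, -0.48 (SE 0.082, adjusted p 1.05e-07) per the authors' deposited table, from an implied 1481 normalized counts to 1060, 28.4% lower. Spcs2 fell at -0.37 (SE 0.071, adjusted p 4.51e-06) per the authors' deposited table, and Spcs1 at -0.12 was not called (adjusted p 0.242). The interchangeable catalytic subunits Sec11a and Sec11c had values of -0.02 (SE 0.082) and 0.05 (SE 0.110) per the authors' deposited table. Of the 5 genes, 2 fell, and the median was -0.12.

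Of the 14 COPII genes 5 fell, among them both exit-site scaffolds and 1 cargo adaptor, with a median log2 fold change of -0.12. Sec16 organises the ER exit sites. Sec16b fell at -0.76 (SE 0.088, adjusted p 4.04e-16) per the authors' deposited table, from an implied 1382 normalized counts to 815.5, 41% lower. Its larger relative Sec16a fell at -0.26 (SE 0.095, adjusted p 0.0323), with an SE 1.46 times the median of the genes nearest to it in mean, the highest such ratio in the set. Preb, the SEC12 exchange factor that loads SAR1 with GTP, fell at -0.20 (SE 0.070, adjusted p 0.0272) per the authors' deposited table. The GTPases themselves, Sar1a at -0.07 and Sar1b at -0.11, were not called.

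Within the inner coat, where SEC24 picks the cargo, the 4 SEC24 genes differed. Sec24d fell at -0.36 (SE 0.058, adjusted p 2.75e-08) per the authors' deposited table, from an implied 10304 normalized counts to 8044. Sec24c at -0.12, Sec24b at 0.04 and Sec24a at 0.15 were not called in the authors' deposited table. Per kb of transcript Sec24d had the highest level of the 4 in both groups, 2639 with vehicle and 2060 with AA147. Its share of the summed SEC24 level was 48.6% with vehicle and 42.9% with AA147. Under the opposite reading it was 42.9% with vehicle and 48.6% with AA147. The partner genes Sec23a at -0.06 (adjusted p 0.616) and Sec23b at -0.16 (adjusted p 0.06) were not called in the authors' deposited table. Sec23b was called with centred fold changes (-0.17) and with the trend subtracted (-0.16). In the outer coat, Sec31a, with a mean of 14208 the most abundant member by count, had -0.13 (adjusted p 0.0888) and Sec13 had -0.09 (adjusted p 0.321) per the authors' deposited table. Sec31b fell at -0.89, but with a mean of 60.5 and an SE of 0.287 (adjusted p 0.0139) per the authors' deposited table its size is poorly known, with a 95% interval from -1.45 to -0.32.

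Of the 6 cargo receptors and SNAREs 2 fell (33.3%, beside 11.1% of all genes) and 4 were not called. Lman2, a lectin of the early secretory pathway, fell at -0.17 (SE 0.062, adjusted p 0.0292) per the authors' deposited table. Sec22b, a SNARE for fusion between ER and Golgi membranes, fell at -0.23 (SE 0.082, adjusted p 0.0296) per the authors' deposited table. With the expression, length and GC trend subtracted, Lman2 (-0.15) lost its call, while Lman1 (-0.20), Mia3 (-0.15) and Sec22a (-0.32) gained one. Lman1, the lectin that exports glycoproteins, had -0.16 (adjusted p 0.0732) and Mia3, the TANGO1 receptor that loads procollagen, had -0.12 (adjusted p 0.142) per the authors' deposited table, and neither was called. Sec22a at -0.25 (SE 0.116) and Sec22c at 0.10 (SE 0.136) were measured with less precision and were not called in the authors' deposited table.

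The p24 proteins, which shuttle between ER and Golgi as cargo adaptors, had called genes of both signs. Of 9 genes 2 fell (22.2%) and 1 rose, beside 11.1% and 9.05% of all genes. The median log2 fold change was -0.10. Tmed3 fell at -0.33 (SE 0.078, adjusted p 0.00032) and Tmed10 at -0.29 (SE 0.087, adjusted p 0.00655) per the authors' deposited table. Tmed4 rose at 0.28 (SE 0.070, adjusted p 0.000762) per the authors' deposited table, from an implied 1778 normalized counts to 2159, the highest value of all 66 genes. The other 6 were not called. Negative values were those of the abundant Tmed9 at -0.10, the sparsely counted Tmed8 at -0.20, Tmed7 at -0.12 and Tmed2 at -0.04. Positive values were those of Tmed5 at 0.03 and Tmed1 at 0.08.

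The COPI coat held the lowest value of the set. Of its 9 genes 5 fell, with a median log2 fold change of -0.17. Copz2, 1 of 2 interchangeable zeta subunits, fell at -0.95 (SE 0.083, adjusted p 3.7e-28) per the authors' deposited table, from an implied 2032 normalized counts to 1055, 48.1% lower. Cope (epsilon) fell at -0.26 (SE 0.073, adjusted p 0.003), Copg1 (gamma) at -0.21 (SE 0.056, adjusted p 0.00155) and Copz1 (zeta) at -0.21 (SE 0.065, adjusted p 0.00903) per the authors' deposited table. Copa (alpha) fell at -0.17 (SE 0.051, adjusted p 0.00957) per the authors' deposited table. The remaining subunits of the core were not called, with Arcn1 (delta) at -0.12, Copb2 (beta prime) at -0.07, Copb1 (beta) at -0.05 and the sparse gamma paralog Copg2 at 0.18 in the authors' deposited table.

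The KDEL receptors fell together under the reading of signs used here, and would have risen together under the opposite one. These proteins bind ER chaperones that have escaped to the Golgi and send them back in COPI vesicles. Kdelr2 fell at -0.26 (SE 0.072, adjusted p 0.00281), from an implied 7554 normalized counts to 6300, in the authors' deposited table. Kdelr3 fell at -0.29 (SE 0.091, adjusted p 0.012) and Kdelr1 at -0.20 (SE 0.071, adjusted p 0.023) per the authors' deposited table. Without the expression, length and GC trend Kdelr1 was no longer called, at -0.17. Per kb of transcript the order Kdelr2, Kdelr1, Kdelr3 was the same in both groups, with shares of 55.8%, 31.7% and 12.5% with vehicle and 55.3%, 32.6% and 12.1% with AA147.

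Pairs of related genes were compared next, since several parts of the coats exist in more than 1 version. Differences between the log2 fold changes of 2 genes were computed with a 95% interval from both SEs, treating the estimates as independent, which genes of the same libraries need not be, and without adjustment for the 14 pairs compared. The interval excluded 0 for 6 pairs. Copz2 lay lower than Copz1 by a difference of -0.73 (interval -0.94 to -0.53), Sec31b lower than Sec31a by -0.76 (-1.33 to -0.19) and Sec16b lower than Sec16a by -0.50 (-0.75 to -0.25). Sec24d lay below Sec24c by -0.24 (-0.40 to -0.08). Of the other two, Sec61a1 minus Sec61a2 was -0.35 (-0.56 to -0.13) and Copg1 minus Copg2 was -0.39 (-0.65 to -0.13).

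The other 8 pairs had intervals that included 0. Among the KDEL receptors, Kdelr1 minus Kdelr2 was 0.06 (-0.14 to 0.26) and Kdelr2 minus Kdelr3 was 0.02 (-0.20 to 0.25). Sar1a minus Sar1b was 0.05 (-0.17 to 0.27) and Sec23a minus Sec23b 0.10 (-0.08 to 0.28). The wider interval of Sec22a minus Sec22b ran from -0.30 to 0.26 and that of Sec11a minus Sec11c from -0.34 to 0.20. Sec24a minus Sec24b was 0.11 (-0.10 to 0.32). Copb1 minus Copb2, which encode different subunits despite their numbering, was 0.02 (-0.14 to 0.17). Intervals of this width do not show that the genes of a pair changed alike.

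**Figure D3:**
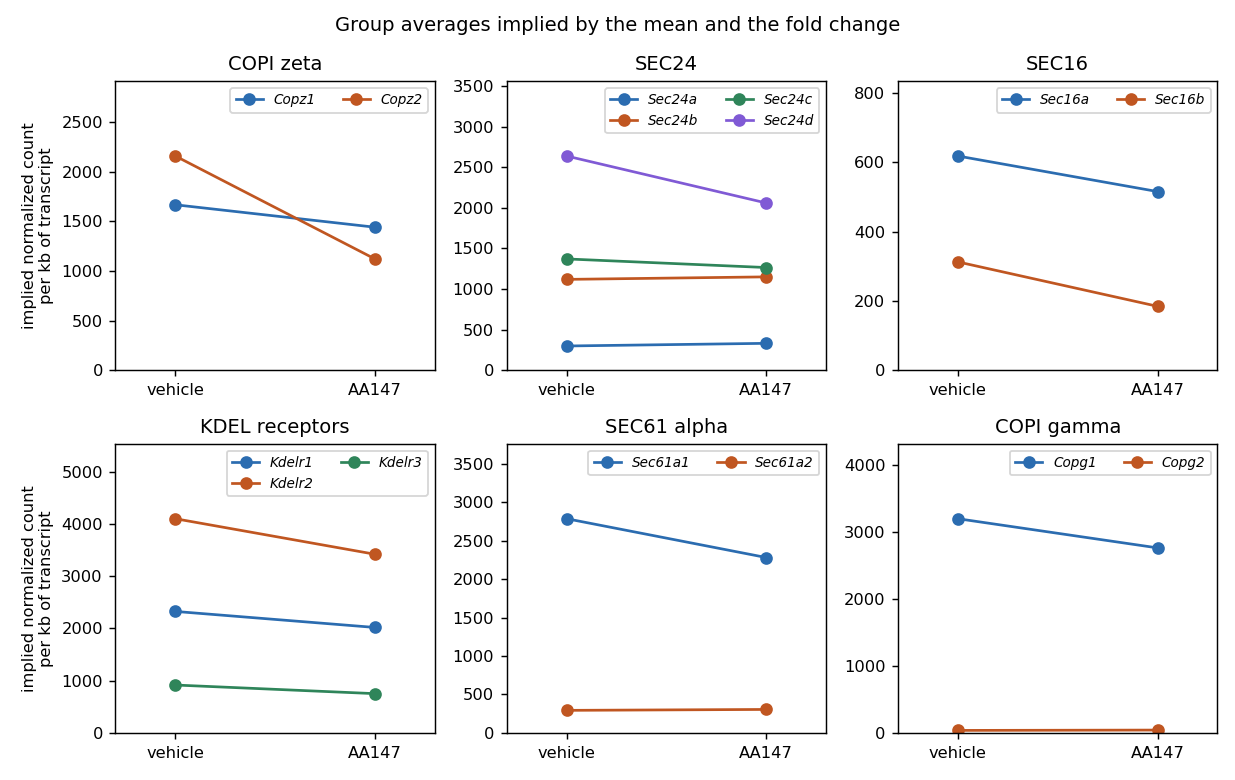
Normalized counts per kb of transcript (vertical axes from 0) implied for vehicle and AA147 by the mean and the fold change, for 6 of the 10 families with 2 to 4 versions of a protein. Copz2 drops from 2157 to 1120 while Copz1 goes from 1666 to 1440, and the order within the other 5 families drawn is the same in both groups. No error is drawn, because the table has no value per library.

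Among the families not drawn, Sar1a and Sar1b changed places, from 1396 and 1427 per kb of transcript with vehicle to 1333 and 1319 with AA147, levels that differ little and carry no error. The balance within the zeta subunits depended on the length used. Per kb of canonical transcript (942 bases for Copz2 and 1656 for Copz1) Copz2 made up 56.4% of the pair with vehicle and 43.8% with AA147. Per coding length (615 and 663 bases) the shares were 44.3% and 32.3%, so only the drop in share, not the order with vehicle, held under both lengths. The share of Sec16b in its pair went from 33.6% with vehicle to 26.3% with AA147 per kb of transcript. Per coding length it went from 36.4% to 28.8%. Under the opposite reading it went from 26.3% with vehicle to 33.6% with AA147, and from 28.8% to 36.4%. Which isoforms these cells use is not known from the table.

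Genes that work beside the members were taken from 8 further lists, 95 of whose 102 symbols were in the authors' deposited table. The 102 symbols include older and newer names of the same gene, so they stand for fewer genes. Of these 95, 18 fell and 6 rose, with a median log2 fold change of -0.06. The 18 amount to 18.9%, between the share in the set and that of all genes. The ER membrane complex and the tail-anchor pathway, which insert membrane proteins by routes other than SEC61, held few called genes: 1 of 9 genes fell in the former (Emc8 at -0.21, SE 0.068) and 1 of 5 rose in the latter (Asna1 at 0.28, SE 0.069) per the authors' deposited table. TRAPP, a tethering and exchange complex at the Golgi, had 2 of 14 genes that rose, Trappc8 at 0.22 and Trappc11 at 0.21 by the authors' deposited table. The TRAPP median was 0.04. Over all genes with an adjusted p, 11.1% fell and 9.05% rose.

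Partners of the translocon and of the coats are read against the 11.1% of all genes that fell, with no test of the difference. Among 13 translocon partners 4 fell (30.8%) and 1 rose, with the lumenal chaperones Hspa5 (BiP) at -0.80 (SE 0.061) and Hyou1 at -0.30 (SE 0.064) the lowest and Nomo1 at 0.23 (SE 0.062) the one that rose in the authors' deposited table. Of 19 genes in the list of COPII and cargo accessory genes 5 fell (26.3%) and 1 rose. That list includes the transcription factors named above, which were the lowest: Creb3l2 at -0.87 (SE 0.091, adjusted p 7.28e-20) and Creb3l1 at -0.39 (SE 0.115, adjusted p 0.00534). The others that fell were Cnih1 at -0.32, Yif1a at -0.24 and Ergic1 at -0.21, and Ergic2 rose at 0.17 (SE 0.066) per the authors' deposited table. For the ER-Golgi tethers and SNAREs 3 of 19 fell (15.8%) and 1 rose, with the Golgi stacking protein Gorasp2 at -0.33 (SE 0.064), the tether Uso1 at -0.30 (SE 0.060) and Zw10 at 0.25 (SE 0.071) per the authors' deposited table. Of the 9 genes of the ARF cycle that recruits COPI, 3 fell (33.3%): Arfgap3 at -0.37 (SE 0.073), the exchange factor Gbf1 at -0.25 (SE 0.072) and Arf3 at -0.25 (SE 0.064) per the authors' deposited table. Among 7 regulators of the unfolded protein response, Xbp1 at -1.21 and Atf4 at -0.51 fell, and Atf6 at 0.01 (SE 0.080), named here because AA147 is known to act through it, was not called, per the authors' deposited table.

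**Figure D4:**
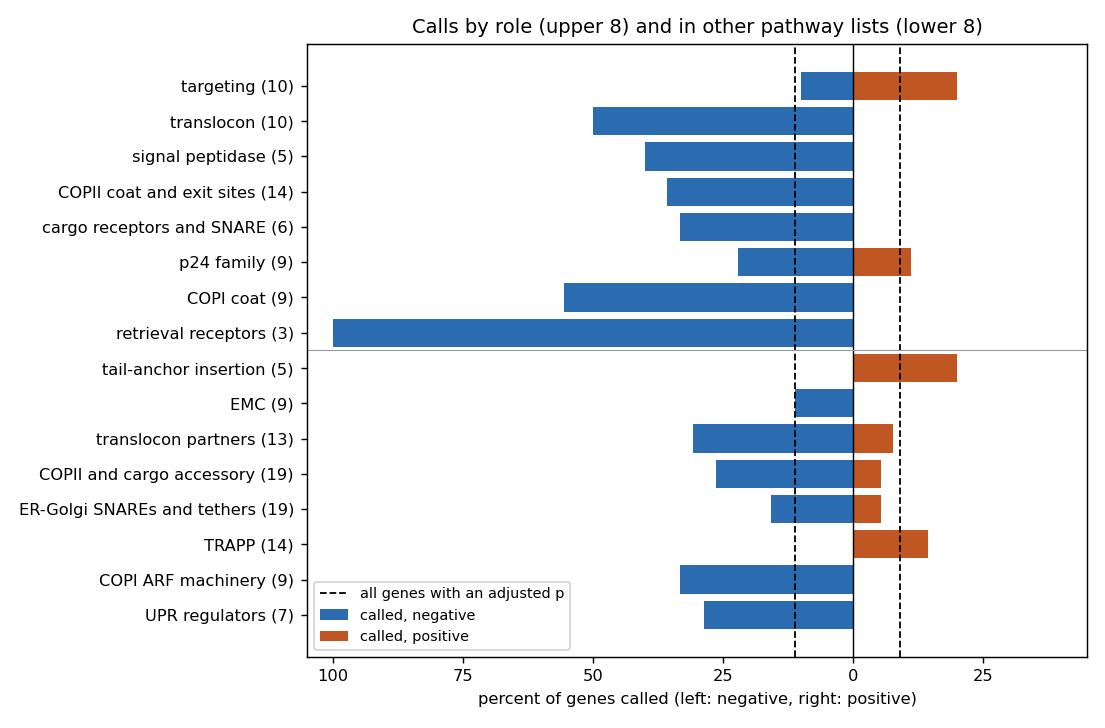
Percent of genes called negative (left of 0) and positive (right of 0) for the 8 roles of the set and 8 lists of other pathway genes, with the number of genes in brackets. Dashed lines mark the shares over all genes with an adjusted p, 11.1% negative and 9.05% positive, and 7 of the 8 roles pass the negative line.

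Markers of cell types were read beside these values. Of 12 neuronal markers 5 were in the authors' deposited table, and the other 7, Rbfox3 and Map2 among them, were not analysed here. Tubb3 had a mean of 1199 and rose at 0.43 (adjusted p 5.67e-05). Syn1 at 0.13, Dlg4 at -0.15 and Camk2a at -0.44 were not called. Slc17a7, with a mean of 3.93, had -1.98 and no adjusted p, so 3 of the 5 values were negative. The summed implied count of the 5 was 3316 with vehicle and 3540 with AA147. Of 7 markers of fibroblasts or mesenchyme 6 were in the table and all 6 fell, from -1.52 for Col1a1 to -0.81 for Dcn in the authors' deposited table. Their summed implied count was 606024 with vehicle and 273538 with AA147, and the collagens among them are cargo of this machinery. Astrocyte, microglia and oligodendrocyte markers in the table numbered 2, 1 and 2, with summed implied counts of 1350, 32.8 and 25.3 with vehicle and 559.4, 63.3 and 36.3 with AA147. Among them the astrocyte gene Slc1a3 fell at -1.30 (adjusted p 2.39e-45) and the microglial gene Csf1r rose at 0.95 (adjusted p 0.0278, mean 48.0) per the authors' deposited table. The part of these markers in the lower transport genes was not tested. The cultures were of 1 line, so these markers are read as single genes and not as numbers of cells of other types. In bulk RNA, a change in some of the cells and a smaller change in all of them cannot be told apart.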

How the data were processed

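Per the submitters' processing notes, the comparison was made with DESeq2 on genome build mm9. The aligner, read counter, annotation and filters are not given in the sources used here. The authors deposited, for each of 16472 genes, a mean normalized count (a signal), a log2 fold change and its SE on the log2 scale, a test statistic (a score), and a p-value with an adjusted p-value for 13597 genes. The score equalled the log2 fold change over its SE within 3.06e-07, and a Benjamini-Hochberg adjustment of the p-values gave the deposited adjusted ones within 7.58e-07. Depth per library is unknown and limits precision only through the SE.

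Calls used the deposited adjusted p under 0.05. Computed here were counts, medians, implied group averages, intervals, differences between pairs and, from GENCODE M39 (GRCm39), transcript length, coding identity (Biopython 1.88) and genome copies (BLAST 2.17.0). No gene coordinates are given, since no mm9 annotation was used, apart from promoters in the RefSeq assembly. Every member matched a GENCODE gene, with older symbols resolved through RefSeq synonyms. Tables were handled in pandas 2.3.3 under Python 3.11.15, with statsmodels 0.14.6 for a robust trend on expression, length and GC content, and the code was tested on simulated data. Every member was named by role, with full statistics for the 3 lowest and 3 highest called genes of a role, all pairs, and the 2 lowest and 2 highest called genes of each other list. Members, lists and tests were chosen with earlier results of these data known.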

Additional observations from a re-analysis of the deposited data

How the results depend on the processing

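No paired analysis was possible because only summary statistics per gene were at hand. Refits with another tool or normalization, a filter on counts before the fit and leaving out each replicate could not be run either. The 25 genes that fell stayed within 1.5 times of that count under the other alternatives, but numbered 3 when a log2 fold change of 0.5 or more in size was also required and 8 with Bonferroni adjustment, both stricter by construction. The 3 genes that rose, which also had an unadjusted p under 0.05, became 1 at an adjusted p under 0.01, 0 with the fold limit, 0 with Bonferroni, 1 after subtraction of the trend on expression, length and GC content, and 1 without the 10 members that have near-identical copies, an alternative chosen after the data were seen, like those for pairs and motif windows. At an adjusted p under 0.01, called genes numbered 2 of 14 for the COPII coat, 0 of 6 for cargo receptors and SNAREs and 1 of 3 for the KDEL receptors. The median of the set stayed within 1 median SE, and each pair kept its sign and, where its interval excluded 0, went on excluding it (Sec31a and Sec31b, without a trend value, only under centring). Uncalled values that changed sign were Srp68 (-0.0040, centred) and, after trend subtraction, Sec61a2 (-0.0013), Tmed5 (-0.10), Srp14 (-0.0358) and Sec11a (0.0118). Motif counts in the bases before the start were 4 for TGACGTGG and 12 for the antioxidant core. Members with a mean under 100, 3 of 66, limit what the depth can show.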
